A study of Mus musculus with 48 samples.

Results

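The membrane and cytosol fractions of E14TG2a mouse embryonic stem cells after 120 min of transcription block were compared with each other. The members were the 3 libraries whose titles give membrane and 120 min and the 3 whose titles give cytosol and 120 min, 6 of the 48 samples of the series, and the comparison covered the 12582 genes listed in all 6 of the 19037 listed in any of them. The cells carried no genetic change named in the labels, were grown in 2i medium with LIF, and all received flavopiridol at 1 µM, which blocks the elongation kinase CDK9 and thereby transcription by RNA polymerase II. Each value was a normalised read count divided by the 0 min value of the same gene in the same fraction, so that 1 means the level at the start of the block and values under 1 a lower level. The 2 groups shared cells, drug and time and differed in the compartment extracted: digitonin released the cytosol first, and a detergent step then released the membranes, mostly of the endoplasmic reticulum (ER) and the mitochondria. The replicates were 3 cultures passaged apart, of 1 cell line.

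In mammalian cells mRNAs for secreted, lysosomal and membrane proteins are brought to the ER while they are translated, because a hydrophobic signal sequence or transmembrane helix emerging from the ribosome is bound by the signal recognition particle and delivered to the Sec61 translocon. mRNAs for cytosolic and nuclear proteins are translated mainly on free ribosomes, although a share of them is also found on ER-bound ribosomes. When no new mRNA is made, the level in each compartment falls through decay and through transfer between compartments, and a ratio to 0 min does not separate these routes.

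The hydrophobic stretches that mark the first class are shown here for 4 genes that were higher in the membrane fraction, beside the most hydrophobic stretch of 3 genes that were lower, because the genes are ordered by this feature below. Each line gives the coding sequence of 19 residues (57 bases, 5′ to 3′) from the GENCODE M21 transcripts (GRCm38), and capitals mark the codons with T in the second position, which encode the hydrophobic residues Phe, Leu, Ile, Met and Val.
Pdia3 (residues 5 to 23, mean hydropathy 1.94): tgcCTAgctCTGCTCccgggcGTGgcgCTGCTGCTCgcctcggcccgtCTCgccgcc
Rpn1 (residues 1 to 19, mean hydropathy 2.21): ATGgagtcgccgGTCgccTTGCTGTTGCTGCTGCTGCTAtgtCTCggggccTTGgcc
Nid2 (residues 13 to 31, mean hydropathy 1.68): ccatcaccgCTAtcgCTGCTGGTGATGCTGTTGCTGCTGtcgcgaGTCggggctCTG
Tfrc (residues 66 to 84, mean hydropathy 2.55): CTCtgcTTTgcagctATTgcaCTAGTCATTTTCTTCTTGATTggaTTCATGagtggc
Aars (residues 344 to 362, mean hydropathy 1.16): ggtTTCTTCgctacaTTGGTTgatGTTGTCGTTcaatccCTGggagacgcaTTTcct
Pkm (residues 413 to 431, mean hydropathy 1.42): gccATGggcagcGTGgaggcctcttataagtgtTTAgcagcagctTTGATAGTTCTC
Psmb7 (residues 135 to 153, mean hydropathy 1.04): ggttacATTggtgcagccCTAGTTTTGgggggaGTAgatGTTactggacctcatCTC
The stretches of Pdia3, Rpn1 and Nid2 begin within the first 20 residues of the protein, and that of Tfrc is the single membrane anchor of the transferrin receptor. None of the 3 lower genes reached the hydropathy threshold of 1.6 used below. The genes lie at chr2:121413775-121438687 (Pdia3), chr6:88084482-88105304 (Rpn1), chr14:19751265-19811787 (Nid2), chr16:32608920-32632794 (Tfrc), chr8:111033144-111057664 (Aars), chr9:59656368-59679375 (Pkm) and chr2:38588036-38644087 (Psmb7).

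The labels of the fractions were checked with the mitochondrially encoded mRNAs, which are kept inside the organelle. They made up 35.2% to 37.2% of the reads in the 3 membrane libraries, which list 12 of them, and 0.109% to 0.141% in the 3 cytosol libraries, which list 7. Read numbers were recovered from the steps between the deposited ratios, and came to 7327487 to 7919571 per membrane library and 6381077 to 6720935 per cytosol library. Of the 20 pluripotency factors listed as markers of the cell type, 17 were listed in all 6 libraries, against 3 of 18 fibroblast and differentiated-cell markers. All 3 replicates of a fraction were divided by the same 0 min number, so an error in that number is not part of the replicate spread or of any p-value at a single time point. It cancels in the change of the difference between time points, which is given for the main results for that reason.

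The typical mRNA was somewhat lower in the membrane libraries. The median log2 ratio over the 12582 genes was -0.66, -0.83 and -0.72 in the 3 membrane libraries and -0.52, -0.61 and -0.61 in the 3 cytosol libraries. The groups did not overlap, and the means differed by -0.16 (-0.73 ± 0.08 against -0.58 ± 0.05, SD, n = 3), with an exact permutation p of 0.1, the smallest that 3 against 3 can give. As linear ratios these are 0.601 in the membrane and 0.67 in the cytosol. Per gene, the median log2 difference was -0.11. The differences and calls below are given against 0 on the deposited scale, without taking out that shift.

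At 120 min, 1122 genes (8.92% of those tested) were higher in the membrane than in the cytosol and 2056 genes (16.3%) were lower, in limma's moderated test on log2 ratios at an adjusted p under 0.05. The higher genes had a median log2 difference of 0.83 and the lower genes of -0.80, and 399 and 663 of them differed by more than 1 on the log2 scale. Together these were 25.3% of the genes tested. Centring the libraries on the median gene gave 1789 higher (14.2%) and 1570 lower (12.5%, 26.7% in all), so the surplus of lower genes did not hold under that scaling. With any 1 of the 6 libraries left out, 584 to 784 genes were higher and 1006 to 1734 lower. Among the 6190 genes with at least 30 reads in each library and at the 0 min level, 1036 were higher (16.7%) and 2289 lower (37.0%), 53.7% in all. Protein-coding genes made up 85.1% of the higher and 81.4% of the lower genes. The plot of single libraries shows 16 of the genes described below.

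**Figure D1:**
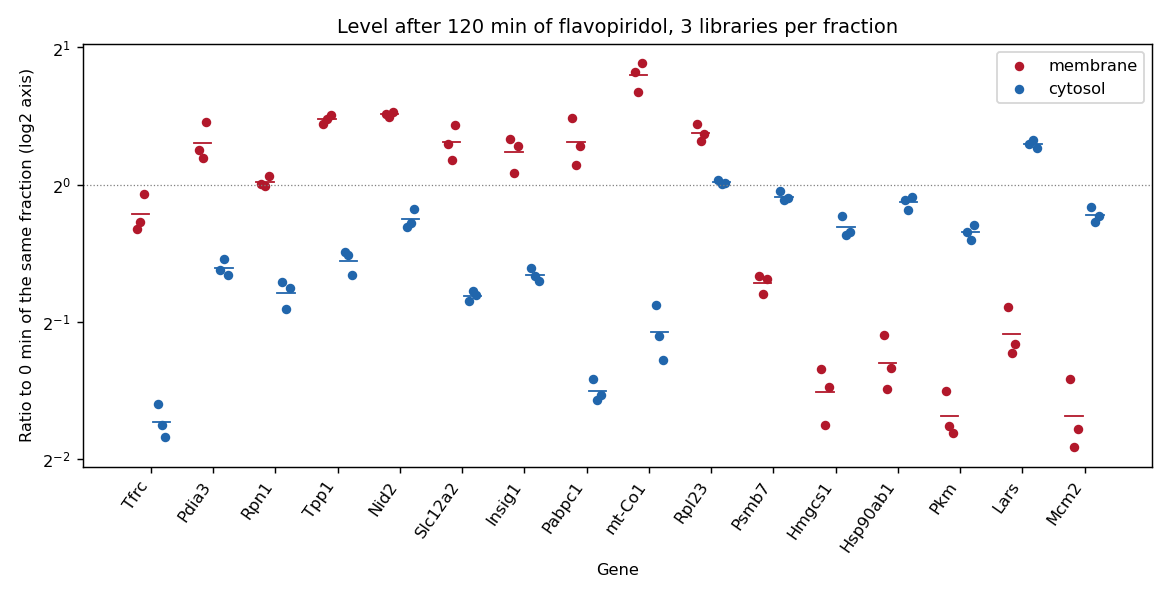
Ratio to 0 min of the same fraction (log2 axis) in each of the 3 membrane (red) and 3 cytosol (blue) libraries at 120 min for 16 genes; short lines mark the means and the dotted line a ratio of 1. In the first 10 genes the membrane libraries lie above the cytosol libraries, in the last 6 below them, and the groups overlap in none of the 16. The genes were picked from those that passed the test, so this is no separate support.

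Transferrin receptor mRNA (Tfrc), which encodes the cell's iron uptake receptor and served as an example in the study, fell far more in the cytosol than on the membrane. Its ratio was 0.800, 0.827 and 0.955 in the membrane libraries and 0.330, 0.296 and 0.279 in the cytosol libraries. All membrane values exceeded all cytosol values, by 2.85-fold on average (log2 difference 1.51 ± 0.13 SE, adjusted p = 0.00704). The difference had grown by 0.99 ± 0.16 since 30 min (adjusted p = 0.0168). Nf1, which encodes the Ras regulator neurofibromin and was another example, had ratios of 0.736, 0.645 and 0.762 in the membrane and 0.571, 0.570 and 0.515 in the cytosol. These do not overlap, but the log2 difference of 0.37 ± 0.11 did not pass limma's test at 120 min (adjusted p = 0.0632). It did pass when the libraries were centred on the median gene (0.53, adjusted p = 0.0113) and among genes with at least 30 reads (adjusted p = 0.0116).

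The largest differences belonged to genes with few reads. Leaving out predicted genes and clone names, the 10 genes with the largest differences among those listed in all 24 membrane and cytosol libraries were Mir3082, Aplp2, Megf6, Reck, Carmil3, Pdzd4, Tpcn2, Ptpru, Setbp1 and Ltbp4, between 3.29 and 2.46 on the log2 scale, and all 10 had fewer than 10 reads in at least 1 of the 6 libraries. The predicted gene Gm29585 (3.12 ± 0.13, on at least 19 reads) would have stood among them. Aplp2 is a relative of the amyloid precursor protein, Reck a membrane-anchored protease inhibitor, Tpcn2 a lysosomal ion channel, Ptpru a receptor tyrosine phosphatase, and Ltbp4 a matrix protein that binds latent TGF-beta, while Carmil3, Pdzd4 and Setbp1 encode proteins with 0 hydrophobic segments. Aplp2 had ratios of 1.43, 1.56 and 1.57 in the membrane against 0.197, 0.198 and 0.097 in the cytosol, the last of which rested on 1 read. The exons of Mir3082 lie wholly within another gene on the same strand, so the microRNA and that gene cannot be told apart.

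Under the same rule, the 10 lowest were Mir6240, Tnfsf13os, Slc3a2, Ubap2l, Hnrnpk, Aldh3b1, Pcyt1b, Epb41l2, Hnrnpr and Calhm2, between -4.21 and -2.15. Of these, 7 had fewer than 10 reads in their shallowest library. Slc3a2, the heavy chain of amino acid transporters, stood out in the direction of its change: its ratio was 1.36, 1.16 and 1.49 in the membrane and 10.3, 9.53 and 9.95 in the cytosol. All cytosol values were higher, at close to 10 times the 0 min level, but that level corresponded to only 7 reads in the shallowest case, and the change of the difference since 30 min did not pass the test (-1.72 ± 0.95, adjusted p = 0.314). Hnrnpk and Hnrnpr encode nuclear RNA-binding proteins, and rested on 2 and 13 reads in their shallowest library. Hnrnpr had ratios of 0.071, 0.072 and 0.077 in the membrane and 0.276, 0.361 and 0.343 in the cytosol, a log2 difference of -2.15 ± 0.19 (adjusted p = 0.00704).

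Among genes with at least 30 reads in each library and at the 0 min level, the 8 largest and 8 lowest differences were taken out after the values had been seen. The highest were 7 mitochondrial mRNAs and Pabpc1, which encodes the cytoplasmic poly(A)-binding protein that coats mRNA tails. Pabpc1 was at 1.40, 1.10 and 1.22 in the membrane and at 0.374, 0.337 and 0.345 in the cytosol, on 6767 reads or more per library. It was higher in the membrane by 1.81 ± 0.12 (adjusted p = 0.00704), and the difference had grown from 0.53 at 30 min, by 1.28 ± 0.14 (adjusted p = 0.00818). Its mean ratio was 1.5 in the nucleus and 0.830 in the total lysate at the same time. The protein has no hydrophobic segment by the definition below.

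The 8 lowest well-covered genes were Calhm2, Kcnq1ot1, Epm2aip1, Bms1, Cers6, Jade1, Mgat5 and Ddb1. Ddb1, the adaptor of a ubiquitin ligase that acts in DNA repair, was at 0.411, 0.318 and 0.360 in the membrane and 1.05, 1.07 and 1.13 in the cytosol, where it had not fallen at all. Cers6, a ceramide synthase of the ER membrane, had 0.645, 0.661 and 0.833 in the membrane against 2.69, 2.05 and 2.29 in the cytosol. Mgat5, a glycosyltransferase of the Golgi, was at 0.435, 0.430 and 0.574 against 1.52, 1.52 and 1.29. Both mRNAs were concentrated in the membrane fraction at 30 min, 18.9-fold for Cers6 and 11.5-fold for Mgat5 by depth-scaled reads, and both stood below 1 there at 120 min and above 1 in the cytosol. Their differences at 30 min were 0.12 and 0.08, and reached -1.72 ± 0.17 and -1.6 ± 0.15 at 120 min (adjusted p = 0.00704 for each).

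Gene lists by site and function of the protein lay on both sides of 0. The counts in each list below stand beside 8.92% higher and 16.3% lower over all genes tested. On the deposited scale the median log2 difference was above 0 in 17 of 33 lists and below 0 in 16, and centring on the median gene changed the sign of 3 of them, the tail-anchored proteins, the Slc25 carriers and the cytosolic ribosomal proteins. Centred on the mitochondrial mRNAs, which themselves lay 1.73 higher in the membrane, every list but theirs fell below 0, so that each direction below is a statement about the deposited scaling on long-lived mRNAs.

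**Figure D2:**
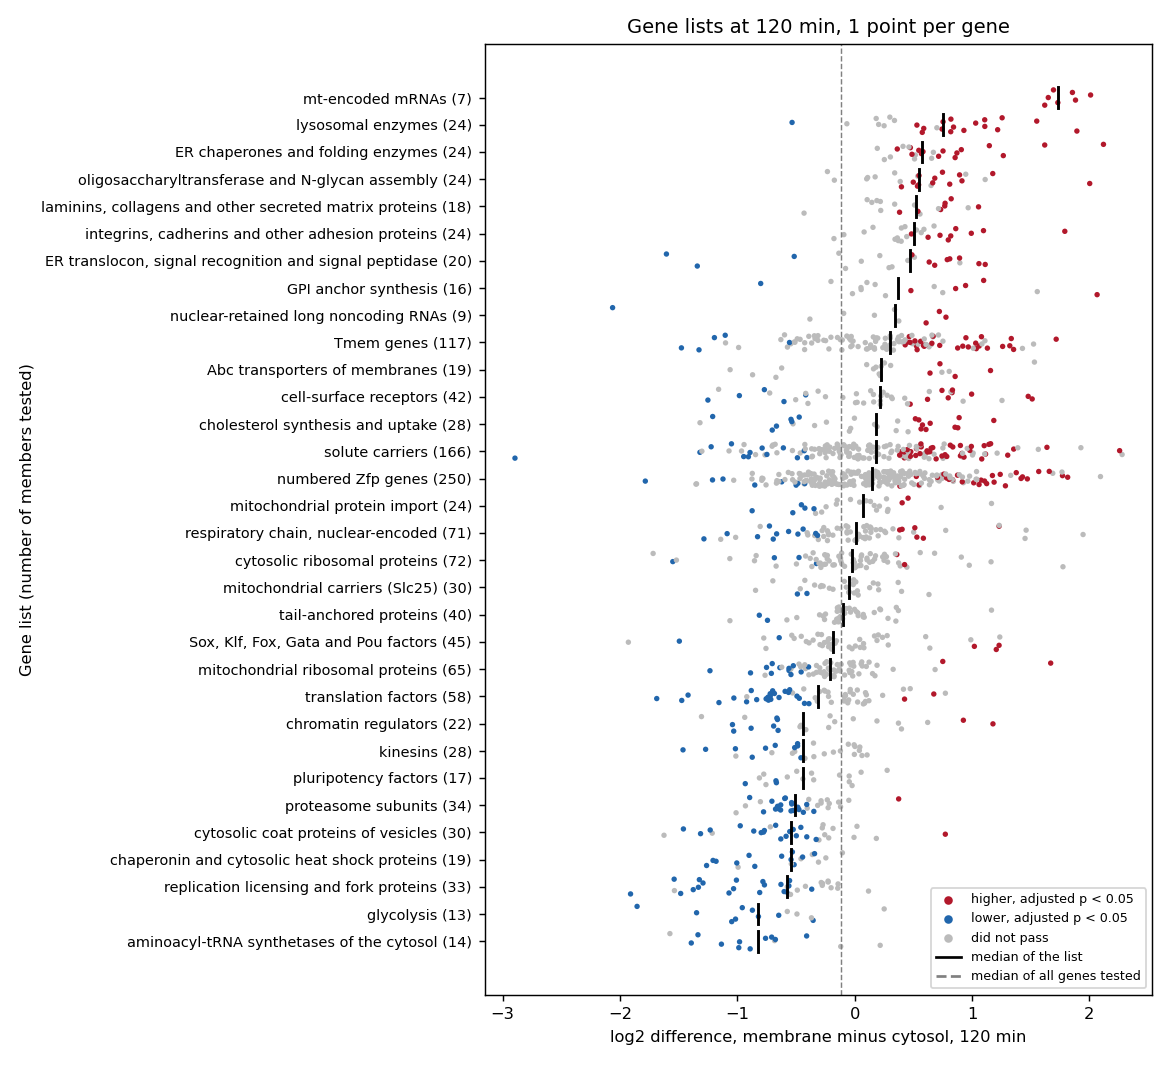
Log2 difference, membrane minus cytosol at 120 min, for each tested member of the 32 lists with at least 7 members tested; red and blue points passed the test as higher and lower, black bars mark list medians and the dashed line the median of all genes, -0.11. On the deposited scale lysosomal and ER lists lie to the right and cytosolic enzyme lists to the left; relative to the mitochondrial mRNAs at the top, every other list median lies lower.

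Lysosomal enzymes, which are made on the ER and delivered through the Golgi, had 16 of 24 tested members higher and 1 lower, with a median difference of 0.75. In these genes the median ratio was 1.16 in the membrane and 0.744 in the cytosol. Tpp1, a lysosomal peptidase, was at 1.36, 1.39 and 1.42 in the membrane and at 0.710, 0.699 and 0.634 in the cytosol, with a difference of 1.03 ± 0.09 (adjusted p = 0.00704). Every membrane value lay above 1 and every cytosol value below it. Neu1, the lysosomal sialidase, differed by 1.89 ± 0.10 on 16 reads in its shallowest library. Gla, alpha-galactosidase A, was the exception at -0.53 ± 0.13 (adjusted p = 0.0351), a call that was lost when the libraries were centred on the median gene (adjusted p = 0.106).

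The machinery of the ER itself behaved alike. ER chaperones and folding enzymes had 15 of 24 tested members higher and none lower by limma (median 0.58), and oligosaccharyltransferase and N-glycan assembly genes had 13 of 24 higher and none lower (median 0.55). Pdia3, a disulfide isomerase of the ER lumen, was at 1.19, 1.14 and 1.37 in the membrane and 0.648, 0.688 and 0.633 in the cytosol (0.91 ± 0.11, adjusted p = 0.00719). Rpn1, a subunit of the oligosaccharyltransferase, was at 1.00, 0.992 and 1.05 against 0.610, 0.532 and 0.594. At 120 min Rpn1 therefore stood near its 0 min level on the membrane and below it in the cytosol. Its membrane ratios were 1.115, 1.0946 and 1.142 at 30 min and 0.6673, 0.7145 and 0.6265 at 240 min. Stt3b, a catalytic subunit of the same complex, differed by 0.91 ± 0.11, Creld2 by 0.87 ± 0.11, and Alg6, which adds glucose to the glycan precursor, by 1.18 ± 0.16. Uggt2, a folding sensor, differed by 1.62 ± 0.16 on 8 reads in its shallowest library. Of the genes for GPI anchor synthesis, 5 of 16 were higher and 1 was lower, among them Pigb (1.10 ± 0.11) and Pigt (2.07 ± 0.37) above and Pigv (-0.80 ± 0.21) below, the last without a call when centred on the median gene (adjusted p = 0.0867).

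The list of translocon, signal recognition and signal peptidase genes held both directions, 8 of 20 higher and 3 lower (median 0.47). The higher members with the lowest p act at the ER membrane: the signal peptidase subunits Sec11c and Sec11a differed by 1.11 ± 0.13 and 1.06 ± 0.13, and Srpr, a subunit of the particle's receptor, by 0.89 ± 0.11. The 3 lower members, Srp68 (-1.34 ± 0.16), Srp72 (-0.52 ± 0.11) and Srp54a (-1.61 ± 0.40), all encode subunits of the signal recognition particle, a soluble complex of the cytosol. Srp68 was at 0.413, 0.301 and 0.314 in the membrane and 0.823, 0.848 and 0.909 in the cytosol. Srpr was at 0.748, 0.682 and 0.797 against 0.397, 0.412 and 0.387, so these 3 subunits of the particle and this receptor subunit lay on opposite sides. Another 9 members of the list passed in neither direction.

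Cholesterol synthesis also held both directions, with 10 of 28 genes higher and 6 lower. HMG-CoA synthase (Hmgcs1), a soluble enzyme, was at 0.394, 0.296 and 0.360 in the membrane against 0.854, 0.775 and 0.788 in the cytosol, a log2 difference of -1.21 ± 0.14, and the soluble enzymes Mvd (-0.70 ± 0.13) and Acat2 (-0.67 ± 0.11) were lower too. Sc5d, a desaturase of the ER membrane, was at 0.854, 0.756 and 0.801 against 0.349, 0.366 and 0.344. It was higher by 1.19 ± 0.11 (adjusted p = 0.00704), and Insig1, the ER protein that retains the sterol sensor, by 0.89 ± 0.10.

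Secreted matrix proteins had 7 of 18 genes higher and none lower (median 0.52). Nid2, a basement membrane protein, was at 1.43, 1.40 and 1.45 in the membrane against 0.807, 0.825 and 0.885 in the cytosol, Timp3, a secreted inhibitor of matrix proteases, differed by 1.06 ± 0.13, and the laminin chain Lamb2 by 0.82 ± 0.12. Adhesion proteins had 9 of 24 genes higher and none lower (median 0.50). Dsg2, a desmosomal cadherin, was at 0.928, 0.911 and 0.953 against 0.435, 0.462 and 0.410, Jam2, a junctional adhesion molecule, differed by 0.86 ± 0.09, and F11r, another member of that family, by 0.99 ± 0.15. The groups overlapped for none of these 6 genes, which were picked by lowest p, so this is no separate support.

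Transporters and receptors were more mixed. Solute carriers had 38 of 166 genes higher and 13 lower (median 0.18), Tmem genes 28 of 117 and 5 (0.30), and ABC transporters 4 of 19 and none (0.23). Slc12a2, the sodium-potassium-chloride cotransporter, was at 1.23, 1.13 and 1.35 in the membrane against 0.555, 0.582 and 0.572 in the cytosol, and the glutamine transporter Slc1a5 and the Slc35 family member Slc35e1 differed by 1.08 ± 0.12 and 0.93 ± 0.10. The folate transporter Slc46a1 (-0.95 ± 0.16) and the nucleoside transporter Slc29a3 (-0.91 ± 0.15) went the other way. Tmem165, a Golgi ion transporter, differed by 1.32 ± 0.10, Tmem63b by 1.03 ± 0.09 and Tmem136 by 1.72 ± 0.14, while Tmem245 (-1.20 ± 0.14), Tmem102 (-1.10 ± 0.21) and Tmem97 (-0.56 ± 0.12) were lower. Of the ABC transporters, Abca2 differed by 1.16 ± 0.18, Abcb1a by 0.73 ± 0.10 and Abcc1, the multidrug resistance protein, by 0.64 ± 0.09.

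Cell-surface receptors had 9 of 42 genes higher and 5 lower (median 0.22). Besides Tfrc, the highest by p were Notch3 (1.00 ± 0.12) and the sorting receptor Sorl1 (0.83 ± 0.10). The epidermal growth factor receptor gene Egfr was at 0.415, 0.488 and 0.424 in the membrane and 1.11, 0.864 and 1.21 in the cytosol, at 0.420 of the cytosolic ratio (adjusted p = 0.00751), on 7 reads in its shallowest library. Bmpr2, a receptor for bone morphogenetic proteins, differed by -0.77 ± 0.14 and Fzd3, a Wnt receptor, by -0.60 ± 0.11. For Egfr and Bmpr2 the difference fell with time. At 30 min it was 0.52 and 0.41 and did not pass limma's test (adjusted p = 0.134 and 0.192). The changes to 120 min passed, with -1.77 ± 0.23 (adjusted p = 0.0125) and -1.18 ± 0.20 (adjusted p = 0.0183). Like Cers6 and Mgat5, both mRNAs were concentrated in the membrane fraction at 30 min, 24.3-fold and 11.1-fold.

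Tail-anchored proteins, whose single hydrophobic segment lies at the end of the protein and which are inserted after synthesis, had none of 40 genes higher and 2 lower by limma, Stx16 (-0.81 ± 0.12) and Gosr1 (-0.74 ± 0.12). Their median of -0.10 was close to the -0.11 of all genes. The median membrane to cytosol ratio of their depth-scaled reads at 30 min was 0.691, against 13.2 for the N-glycan list and 30.1 for the ER chaperones.

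The lists for cytosolic proteins moved the other way. Aminoacyl-tRNA synthetases, which charge tRNAs in the cytosol, had 10 of 14 genes lower and none higher, with a median difference of -0.83. Lars, leucyl-tRNA synthetase, was at 0.538, 0.426 and 0.447 in the membrane and 1.229, 1.252 and 1.204 in the cytosol. Aars, alanyl-tRNA synthetase, was at 0.504, 0.379 and 0.386 against 1.07, 1.04 and 1.07. Both had fallen to under 0.55 on the membrane and stood above 1 in the cytosol, with differences of -1.39 ± 0.12 and -1.34 ± 0.14 (adjusted p = 0.00704 for each), and Hars differed by -0.89 ± 0.11.

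Glycolytic enzymes had 9 of 13 genes lower and none higher (median -0.82). Pyruvate kinase (Pkm) was at 0.351, 0.295 and 0.285 in the membrane and 0.788, 0.756 and 0.817 in the cytosol, Pfkl, the liver-type phosphofructokinase, differed by -1.02 ± 0.10 and hexokinase 2 (Hk2) by -1.05 ± 0.12. Replication licensing and fork proteins had 19 of 33 lower and none higher (median -0.58). Mcm2, a subunit of the replicative helicase, was at 0.374, 0.265 and 0.291 against 0.893, 0.827 and 0.852, Mcm4 differed by -1.38 ± 0.13 and Rpa1, which binds single-stranded DNA, by -1.91 ± 0.20 on 4 reads in its shallowest library. Kinesins had 10 of 28 lower and none higher (median -0.44), with Kif22 at -1.27 ± 0.16, Kif2c at -1.46 ± 0.21 and Kif23 at -1.02 ± 0.15.

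Chaperonin and cytosolic heat shock genes had 12 of 19 lower and none higher (median -0.54). Hsp90ab1, an abundant cytosolic chaperone with at least 29397 reads per library, was at 0.468, 0.355 and 0.396 in the membrane and 0.926, 0.881 and 0.941 in the cytosol, Hspa4 differed by -1.26 ± 0.12 and the chaperonin subunit Cct5 by -1.01 ± 0.12. Proteasome subunits had 19 of 34 lower and 1 higher (median -0.51). Psmb7 was at 0.629, 0.575 and 0.620 against 0.967, 0.923 and 0.932, Psmc5 and Psmd2 differed by -0.67 ± 0.10 and -0.78 ± 0.12, and the exception was Psma3 at 0.37 ± 0.10 (adjusted p = 0.043). Cytosolic coat proteins of vesicles, which act at membranes but are made in the cytosol, had 17 of 30 lower and 1 higher (median -0.54). Copb2, a subunit of the COPI coat, was at 0.462, 0.394 and 0.476 against 1.08, 1.01 and 1.03, the COPII subunits Sec23b and Sec13 differed by -1.31 ± 0.16 and -0.78 ± 0.09, and Copa was higher (0.77 ± 0.21, adjusted p = 0.0434) on 11 reads in its shallowest library.

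Translation factors had 24 of 58 lower and 2 higher (median -0.31, lowest -1.69). By lowest p, though not by size, eIF3 subunits led the lower ones. Eif3c was at 0.438, 0.321 and 0.336 in the membrane and 0.977, 0.968 and 0.960 in the cytosol, Eif3d differed by -1.16 ± 0.13 and Eif3m by -1.03 ± 0.11. The 2 higher members were Eef1b2 (0.42 ± 0.09), an elongation factor, and Eif2ak3 (0.67 ± 0.15), which encodes PERK, a stress kinase that is itself a membrane protein of the ER. Cytosolic ribosomal proteins showed little difference, 2 of 72 higher and 4 lower with a median of -0.02, and median ratios of 0.866 in the membrane and 0.954 in the cytosol. Rps20 (0.43 ± 0.11) and Rpl23 (0.36 ± 0.09) were higher, Rpl3 (-0.68 ± 0.11), Rpl10l (-0.47 ± 0.13) and Rps19 (-1.55 ± 0.38) lower, the last pair without a call when centred on the median gene (adjusted p = 0.0746 and 0.06). Rps19 was not listed in every library of either fraction over the time course, so its read numbers were not recovered. Its ratios at 120 min lay between 0.0274 and 0.1429. Ribosomal protein genes have many processed copies in the genome, so reads may be split between them.

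Mitochondria lie in the membrane fraction, but their nuclear-encoded genes did not follow the ER lists. The respiratory chain had 6 of 71 higher and 11 lower (median 0.01), mitochondrial ribosomal proteins 2 of 65 and 12 (-0.21), the import machinery 2 of 24 and 5 (0.07) and the Slc25 carriers none of 30 and 2 (-0.05). Over all genes tested 8.92% were higher and 16.3% lower, and the respiratory chain counts were near those shares. Sdha, the catalytic subunit of complex II, was at 0.598, 0.466 and 0.465 against 0.901, 0.882 and 0.912, the assembly factor Ndufaf3 differed by -0.73 ± 0.10, while Ndufaf2 (1.23 ± 0.17), Atp5e (0.59 ± 0.12) and Atp5k (0.51 ± 0.13) were higher. Mrpl44 (-1.23 ± 0.16), Mrpl14 (-0.89 ± 0.11) and Mrps31 (-0.64 ± 0.12) were lower and Mrps12 (1.67 ± 0.17, on 4 reads in its shallowest library) and Mrpl33 (0.75 ± 0.13) higher. Tomm20, a receptor on the outer membrane, was at 1.00, 0.969 and 1.09 against 0.784, 0.719 and 0.728, Timm8b differed by 0.40 ± 0.10, and Timm13 (-0.87 ± 0.20), Timm44 (-0.53 ± 0.11) and Pmpcb (-0.45 ± 0.11) were lower. The carriers that passed were Slc25a11 (-0.49 ± 0.14) and Slc25a5 (-0.41 ± 0.10). Slc25a11 lost its call when centred on the median gene (adjusted p = 0.06), and both did when centred on the ribosomal protein genes.

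Of 13 mRNAs encoded by mitochondrial DNA, 7 were listed in all 6 libraries, with ratios above 1 in each membrane library and below 1 in each cytosol library. All 7 were higher in the membrane, by a median of 1.73. mt-Co1, a subunit of cytochrome oxidase, was at 1.77, 1.6 and 1.85 in the membrane and 0.545, 0.466 and 0.411 in the cytosol, mt-Nd5 differed by 2.01 ± 0.13 and mt-Nd4 by 1.65 ± 0.15. At 30 min the difference of mt-Co1 was already 1.13, and at 60 min it was 0.30. The mitochondrial reads in the cytosol libraries were 0.141% of the total at most, so the cytosolic ratios describe traces. A further 5, mt-Co2, mt-Co3, mt-Atp6, mt-Atp8 and mt-Nd4l, were listed in the membrane libraries only and spread widely there: mt-Co2 was at 2.49, 1.66 and 0.721. All 5 were above 1 in membrane replicates 1 and 2 and below 1 in replicate 3.

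Transcription factor and chromatin lists held both directions. Numbered Zfp genes had 27 of 250 higher, a share near the 8.92% of all genes, and 8 lower (median 0.15), at low levels in both fractions (median ratios 0.221 and 0.207). Zfp960 was at 0.184, 0.162 and 0.180 in the membrane and 0.062, 0.051 and 0.053 in the cytosol, and Zfp407 and Zfp930 differed by 1.08 ± 0.13 and 1.43 ± 0.17. Zfp622 (-1.12 ± 0.16), Zfp369 (-0.85 ± 0.14) and Zfp410 (-0.62 ± 0.10) were lower. These genes were not concentrated in the membrane fraction at 30 min (median 0.808 by depth-scaled reads). Sox, Klf, Fox, Gata and Pou factors had 3 of 45 higher, Foxn3 (1.23 ± 0.09), Klf7 (1.02 ± 0.17) and Klf6 (1.21 ± 0.28), and 2 lower, Foxk1 (-0.64 ± 0.14) and Sox3 (-1.49 ± 0.36). Neither share exceeded the 8.92% and 16.3% of all genes.

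Chromatin regulators had 7 of 22 lower and 2 higher (median -0.44), with Trim28, a corepressor, at 0.474, 0.397 and 0.422 against 0.851, 0.860 and 0.927, Chd1 at -0.88 ± 0.13 and Hdac1 at -0.69 ± 0.11, and Chd7 (0.93 ± 0.25) and Ehmt1 (1.18 ± 0.33) higher. The call of Ehmt1 was at the threshold by limma (adjusted p = 0.0499), and its membrane read numbers were not recovered. Pluripotency factors had 3 of 17 lower, a share near the 16.3% of all genes, and none higher (median -0.44). Nanog was at 0.332, 0.270 and 0.290 in the membrane and 0.502, 0.554 and 0.650 in the cytosol (-0.93 ± 0.16, adjusted p = 0.0128), and Tfcp2l1 and Tdh differed by -0.67 ± 0.10 each. Of long noncoding RNAs known to stay in the nucleus, 3 of 9 were higher and 1 lower: Firre was at 1.87, 1.8 and 2.00 against 1.16, 1.05 and 1.11, Pvt1 differed by 0.72 ± 0.14 and Meg3 by 0.61 ± 0.17. Kcnq1ot1, the antisense RNA of an imprinted domain, was at 0.449, 0.324 and 0.474 in the membrane and 1.84, 1.70 and 1.61 in the cytosol. Its ratio in the nucleus was 0.385, close to that on the membrane. None of the 3 fibroblast markers tested passed, the nearest being Col1a1 (-0.90 ± 0.27, adjusted p = 0.0623).

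The genes were also ordered by a property of the encoded protein. Hydrophobic segments were counted as stretches of 19 residues, without overlap, with a mean Kyte-Doolittle hydropathy of at least 1.6, in 9570 tested genes with a protein in the annotation. The median log2 difference was -0.19 for the 6555 genes with 0 segments, 0.02 for the 1645 genes with 1, 0.26 for the 891 with 2 to 4 and 0.35 for the 479 with 5 or more. The share of higher genes rose in that order from 4.96% to 15.2%, 26.4% and 28.8%, beside 8.92% of all genes tested, and the share of lower genes fell from 20.3% to 14.7%, 8.19% and 5.43%, beside 16.3%. The median change of the difference from 30 to 120 min, in which the 0 min number cancels, was smaller and did not rise to the last class: -0.12, -0.03, 0.08 and 0.05.

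Among genes with a single segment, its position went with a different median. Where it began within the first 50 residues, as a signal sequence does, the median was 0.31 over 558 genes, with median ratios of 0.806 in the membrane and 0.620 in the cytosol. Where it began later the median was -0.12 over 1087 genes, with 0.620 and 0.692, about as in all genes. In genes with 5 or more segments the position made little difference, 0.38 over 266 genes against 0.32 over 213.

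**Figure D3:**
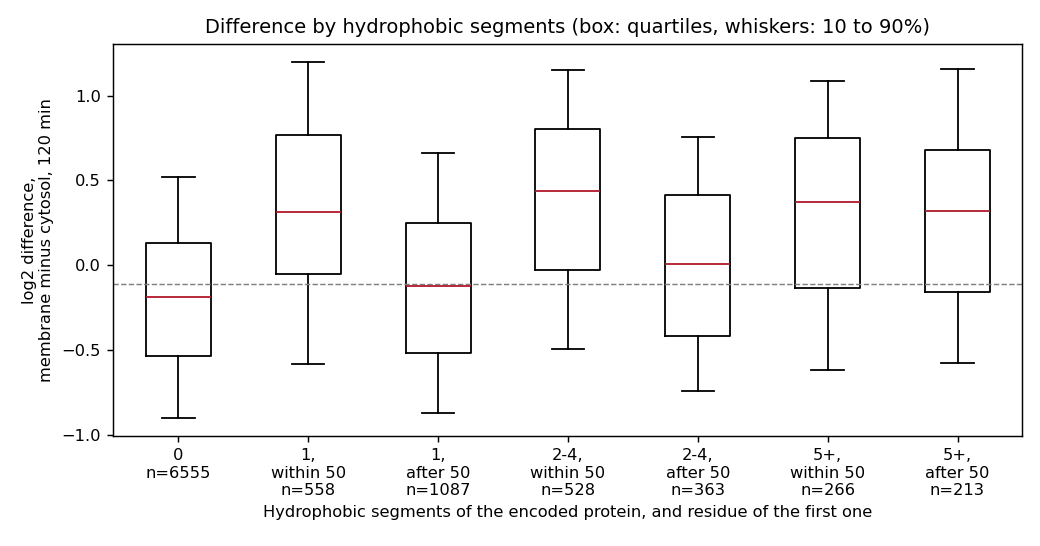
Log2 difference, membrane minus cytosol at 120 min, by the number of hydrophobic segments of the encoded protein and by whether the first began within or after 50 residues; boxes give quartiles, red lines medians and whiskers the 10th to 90th percentile, and the dashed line is the median of the 9570 genes. Medians run from -0.19 with no segment to 0.44 with 2 to 4 segments starting early, on the deposited scale.

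The genes were then ordered by where their mRNA was found at 30 min. This split was added after the values had been seen, and used reads scaled to the total of nuclear-encoded genes in the 30 min libraries, which enter neither the 120 min values nor the 0 min level. Of 11076 genes, the 539 with a membrane to cytosol ratio under 0.5 had a median difference of -0.71, and 45.3% of them were lower. The 6564 genes between 0.5 and 1 had -0.22, those between 1 and 1.5, 1.5 and 3 and 3 and 8 had 0.01, 0.09 and 0.29, and the 1011 genes over 8 had 0.56, with 44.3% higher and 3.66% lower. With the 60 min libraries in place of the 30 min ones the first and last medians were -0.73 and 0.58. With the classes set at 30 min, the first and last already differed by -0.44 and 0.42 at that time, a difference that shares its libraries with the classes. Their median change from 30 to 120 min was -0.25 and 0.13, with 15.2% of the first class passing as falling and 0.742% as rising, and 5.84% of the last as rising and 4.35% as falling. Over all genes tested for this change 1.81% rose and 5.13% fell, so the falling share of the last class was near that of all genes.

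The mRNAs that began on the membrane also stood at a higher level there: over the same 6 classes the median membrane ratio rose from 0.462 to 0.911, while the median cytosol ratio went from 0.786 to 0.610. The 154 genes without a segment but over 3 at 30 min had a median of 0.47, close to the 0.49 of 1255 genes with a segment and over 3. The 1155 genes with a segment but at 1.5 or less had -0.19, close to the -0.21 of 5558 genes without a segment at 1.5 or less.

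**Figure D4:**
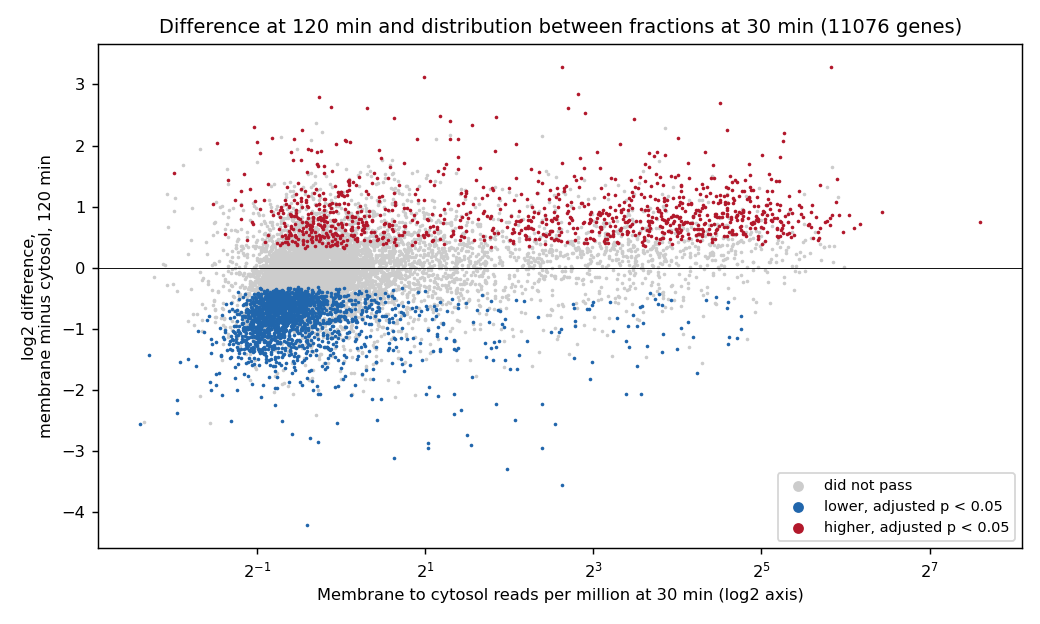
Log2 difference at 120 min against the membrane to cytosol ratio of depth-scaled reads at 30 min (log2 axis), 1 point per gene for 11076 nuclear-encoded genes; red and blue points passed the test as higher and lower. Blue points gather at the left, where the class under 0.5 has a median of -0.71, and red points at the right, where the class over 8 has 0.56, on the deposited scale.

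The difference at 120 min had been built up to unequal extents by then. At 30 min limma called 1 of 13637 genes tested as higher (0.00733%) and 0 as lower, with 3255 at an unadjusted p under 0.05. At 60 min 741 of 13293 were higher (5.57%) and 1992 lower (15.0%), 20.6% in all. At 240 min 854 of 12248 were higher (6.97%) and 578 lower (4.72%), 11.7% in all. All 4 comparisons share the 0 min numbers and cannot be counted as separate evidence. From 30 to 120 min, where the 0 min numbers cancel, the difference rose in 218 genes (1.81% of 12074) and fell in 619 (5.13%), together 6.93%.

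The medians of several lists for cytosolic proteins were lower at 120 min than at 30 min. The median differences at 30, 60 and 120 min were -0.17, -0.64 and -0.83 for the tRNA synthetases, of which 9 of 14 passed as falling between 30 and 120 min. The proteasome went from -0.09 over -0.32 to -0.51 (5 of 34), and the cytosolic chaperones from -0.11 over -0.48 to -0.54 (6 of 19). Glycolysis went from -0.34 to -0.85 (5 of 13 passed) and the replication list from -0.29 to -0.58 (6 of 33). None of these 5 lists had a member that passed as rising, but over all genes tested only 1.81% rose and 5.13% fell.

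Of the ER lists, the chaperones stood furthest from 0 at 30 min. They had a median difference of 0.52 at 30 min, 0.62 at 60 min, 0.56 at 120 min and 0.57 at 240 min, and 1 of 24 passed as rising from 30 to 120 min. Genes with 5 or more hydrophobic segments had 0.36 at 30 min and 0.40 at 120 min over the genes listed in all 24 libraries. An offset already present at 30 min and an error of the shared 0 min level cannot be told apart in these files. The lysosomal list went from 0.33 over 0.52 to 0.75, with 5 of 24 passing as rising from 30 to 120 min, Neu1 and Tpp1 among them (1.36 ± 0.20 and 0.73 ± 0.12). Matrix genes went from 0.17 to 0.55 (3 of 17) and N-glycan genes from 0.28 to 0.55 (1 of 24), and Rpn1 and Nid2 passed with 0.50 ± 0.11 and 0.46 ± 0.10. Insig1 (0.68 ± 0.12), Jam2 (0.57 ± 0.11) and Notch3 (0.63 ± 0.15) passed too. Other genes named above did not pass limma's test of this change: Pdia3 (0.13 ± 0.12, adjusted p = 0.563), Creld2 (0.34 ± 0.24, 0.438) and Alg6 (0.42 ± 0.23, 0.309). Nor did Dsg2 (0.27 ± 0.13, 0.231), F11r (0.11 ± 0.31, 0.877) and Abcc1 (-0.10 ± 0.17, 0.789).

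**Figure D5:**
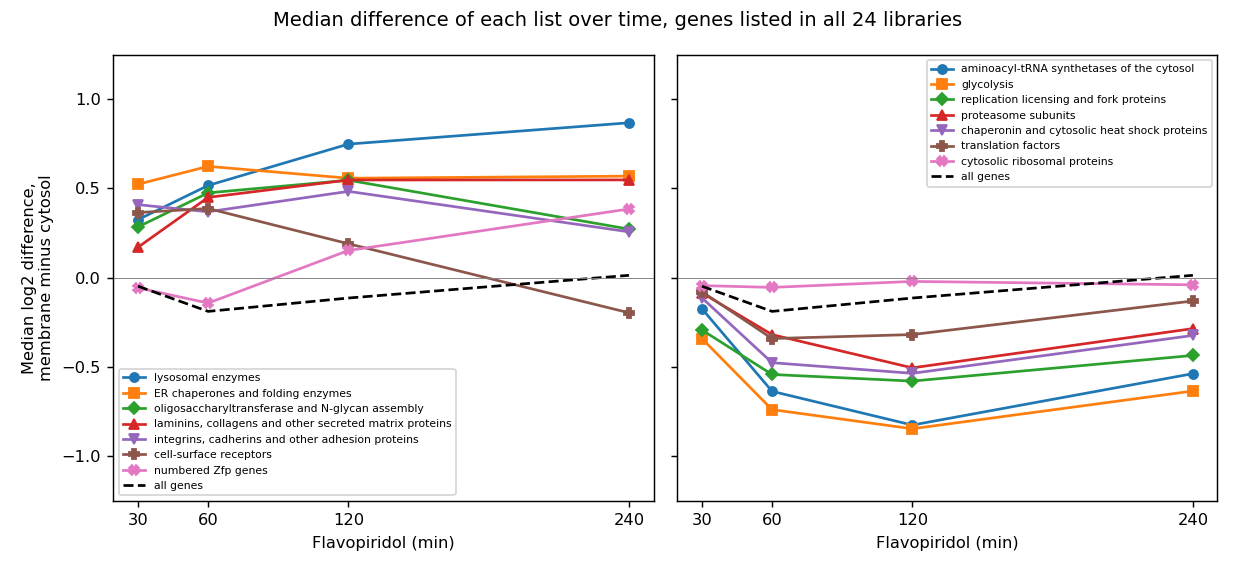
Median log2 difference, membrane minus cytosol, of 14 gene lists at 30, 60, 120 and 240 min over genes listed in all 24 libraries, with all genes dashed; all points share the 0 min numbers. On the deposited scale the synthetase, glycolysis, replication, proteasome and chaperonin lists reach their lowest medians at 120 min, down to -0.85 for glycolysis, and the lysosomal, ER chaperone, N-glycan, matrix and adhesion lists lie above 0 at all 4 times.

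Between 60 and 120 min few genes changed their difference: 11 rose (0.0912% of 12067) and 6 fell (0.0497%), together 0.141%, with 1169 at an unadjusted p under 0.05. Leaving out cytosol 120 min replicate 1 gave 15 and 7 genes, and leaving out any 1 of the other 11 libraries 4 to 7 that rose and 2 to 6 that fell. Of the 11, 6 were mitochondrial mRNAs, with mt-Co1 going from 0.30 to 1.88 (1.58 ± 0.16, adjusted p = 0.00709), and mitochondrial reads in the cytosol libraries were 0.184% to 0.238% at 60 min and 0.109% to 0.141% at 120 min. The part of these traces in the result was not tested. Among those that fell were Cers6, from -0.41 to -1.72 (-1.31 ± 0.18, adjusted p = 0.0394), and Abhd2, a membrane-bound lipase, from -0.05 to -1.13 (-1.09 ± 0.12, adjusted p = 0.0079).

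Between 120 and 240 min, 5 genes rose (0.0435% of 11506) and 5 fell (0.0435%), together 0.0869%, with 1484 at an unadjusted p under 0.05. These counts rested on single libraries: with any 1 of the 12 left out, 0 to 1 rose, and 0 to 5 fell. The 5 that fell were Slc27a3, Elovl7, Slc35g1, Parm1 and Il17ra. Slc27a3, a fatty acid transport family member, went from -0.07 to -1.51 (-1.44 ± 0.15, adjusted p = 0.0303). Those that rose were Ogt, Nktr, B4galnt2, E530011L22Rik and Gm12583, and Ogt, the enzyme that attaches GlcNAc to nuclear and cytosolic proteins, went from -0.70 to 0.61 (1.31 ± 0.19, adjusted p = 0.0423). These 10 genes were named after their values had been seen.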

How the data were processed

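PolyA-selected, stranded RNA libraries of 4 fractions of flavopiridol-treated E14TG2a cells had been sequenced. Per the submitters' processing notes and the published methods, STAR 2.7.6 and RSEM 1.3.3 were run on mm10, and the authors scaled the libraries on long-lived mRNAs and divided by the 0 min value. The deposited values are these ratios, with 1 common 0 min value for the replicates of a fraction, and no gene is listed at 0.

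For genes listed in all 6 libraries, the limma package (3.58.1, under R 4.3.3) was applied to the log2 ratios (moderated test with an intensity trend, both directions, no pseudocount). P-values were adjusted by Benjamini-Hochberg over all genes tested, with a threshold of 0.05. Reads were recovered as whole multiples of a gene's smallest step (whole within 0.0001). They are inferred values, chosen for use after the data were seen, and served for depth, filters, variance alternatives and the 30 min distribution. The fit was tested on simulated reads with known changes. These held no shared 0 min error and no shift between libraries, so that test says nothing on either. Positions and proteins came from GENCODE M21 (GRCm38). SD is between replicates, and SE comes from the fit.

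The members, gene lists and tests were chosen with earlier results of these data known. Named genes were Tfrc and Nf1, the 10 largest and 10 lowest differences among called genes listed in all 24 libraries whose groups did not overlap, without predicted genes and clone names, and up to 3 called members per list and direction by lowest p; 3 of these genes are not reported here. The alternatives changed the pseudocount, the filter on listed genes, the scaling, the variance model, the samples in the fit, the replicate block and each library in turn.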

Additional observations from a re-analysis of the deposited data

Results flagged for a closer look

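The difference between membrane and cytosol at 120 min was itself tested against the differences at 60 and 240 min, and 4 groups of genes passed. From 60 to 120 min it rose in 11 genes: mt-Co1, mt-Cytb, mt-Nd1, mt-Nd4, mt-Nd5, mt-Nd6, Cyp11a1, Gm28438, Gm29585, Gm37270 and Mab21l1. It fell in 6 genes over the same interval: Abhd2, Cers6, Ppm1l, Steap1, Tgfbrap1 and Xylt1, with Tgfbrap1 changing most (-4.11 ± 0.45, adjusted p = 0.0079 by limma). From 120 to 240 min it rose in 5 genes, B4galnt2, E530011L22Rik, Gm12583, Nktr and Ogt. It fell in 5 others, Elovl7, Il17ra, Parm1, Slc27a3 and Slc35g1. Several of the genes in these groups had few reads at 120 min. The shallowest library held 2 for Il17ra and Gm37270, 3 for Gm12583, 7 for Cyp11a1 and 10 for Gm28438. Mab21l1 and Tgfbrap1 were not listed in every membrane and cytosol library of the series, and no read numbers were recovered for both fractions.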

How the results depend on the processing

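Of 161 genes named from the 120 min comparison, 115 kept their call in every fit in which they were listed other than the one centred on the mitochondrial mRNAs. In 92 combinations of a gene and a fit the gene was not listed. Most of these genes were picked by p or by size of difference in the same libraries, so this is no separate support. The numbers of genes called at 120 min, 1122 higher and 2056 lower, stayed within 1.5 times under both pseudocounts, both filters on listed genes, both read minimums, all variance models, 1 fit of all 24 libraries and centring on ribosomal protein genes. Centring on the median gene gave 1789 higher, and centring on the mitochondrial mRNAs 12 higher and 11387 lower. The difference at 120 min minus that at 30 min, added after the data were seen, gave 218 and 619. The published methods extracted the fractions of a culture in sequence, and the main fit did not use that pairing. Deviations of same-numbered membrane and cytosol libraries correlated at 0.032, 0.042 and 0.035, and those of differently numbered libraries at -0.038 to 0.003. Over the 4003 genes best covered in their shallowest library these were 0.088, 0.111 and -0.005, and -0.201 to 0.105. These values do not settle whether equal numbers mark the same culture. With the replicate block the counts were 658 and 1217 at 120 min, 5 higher from 60 to 120 min and 0 in either direction from 120 to 240 min, and 35 of the 161 genes lost their call. Without membrane replicate 1, 2 or 3 there were 694, 738 and 584 higher and 1734, 1273 and 1239 lower genes, and without cytosol replicate 1, 2 or 3 there were 784, 690 and 694 higher and 1006, 1030 and 1080 lower. From 60 to 120 min, leaving out single libraries gave 4 to 15 higher and 2 to 7 lower genes, and centring on the median gene 24 and 12. From 120 to 240 min these were 0 to 1 higher and 0 to 5 lower, and 8 and 24. The difference of the library medians ranged from -0.193 to -0.11 without single libraries. Medians by hydrophobic segments became -0.032, 0.175, 0.416 and 0.505 for 0, 1, 2 to 4 and 5 or more segments when centred on the median gene, and 0.143 and 0.353 for 1 and 2 to 4 segments with a threshold of 1.8. Centred on the mitochondrial mRNAs, 59 named genes changed the sign of their log2 difference: Abca2 -0.557, Abcb1a -0.988, Abcc1 -1.07, Alg6 -0.538, Atp5e -1.13, Atp5k -1.2, Chd7 -0.788, Copa -0.942, Creld2 -0.843, Dsg2 -0.617, Eef1b2 -1.29, Ehmt1 -0.536, Eif2ak3 -1.04, F11r -0.721, Firre -0.937, Foxn3 -0.484, Insig1 -0.824, Jam2 -0.853, Klf6 -0.508, Klf7 -0.694, Lamb2 -0.892, Meg3 -1.11, Mrpl33 -0.964, Mrps12 -0.044, Ndufaf2 -0.484, Nf1 -1.34, Nid2 -0.947, Notch3 -0.718, Pdia3 -0.806, Pigb -0.615, Pigg -0.854, Psma3 -1.34, Pvt1 -0.993, Rpl23 -1.35, Rpn1 -0.904, Rps20 -1.29, Sc5d -0.529, Sec11a -0.656, Sec11c -0.602, Slc12a2 -0.599, Slc1a5 -0.632, Slc35e1 -0.783, Sorl1 -0.885, Srpr -0.821, Stt3b -0.8, Tfrc -0.202, Timm8b -1.31, Timp3 -0.659, Tmem165 -0.392, Tmem63b -0.683, Tomm20 -1.26, Tpp1 -0.683, Uggt2 -0.095, Zfp407 -0.637, Zfp930 -0.284, Zfp960 -0.056, mt-Cytb -0.02, mt-Nd1 -0.095, mt-Nd4 -0.065. This centring takes the same amount from the log2 difference of every gene, and the median of all genes went from -0.113 to -1.83. A gene with a positive difference smaller than that amount therefore changes sign by arithmetic. The mitochondrial mRNAs were at most 0.141% of the reads in the cytosol libraries at 120 min, so this scaling rests on traces there. For the other alternatives the causes of the changes were not tested. Depth limits the extremes, since 17 of the 20 most extreme genes had fewer than 10 reads in a library, against 2904 of 11086 genes.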

Other observations

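Genes seen in a single compartment are not part of the comparison. At 120 min 609 genes were listed in all 3 membrane libraries and in no cytosol library, and 347 genes in all 3 cytosol libraries and in no membrane library.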
